A study of Mus musculus with 6 samples.

Results

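The connexins of the mouse cochlea were followed in the organ of Corti with and without Pjvk, the gene of pejvakin. They comprise 9 genes, Gjb2, Gjb6, Gjb1, Gja1, Gja4, Gja5, Gjc1, Gjc3 and Gjd2, each chosen by its symbol in the array's annotation and each represented by 1 probe set, out of 19938 genes tested. The rule used the symbol and no measured value, but the members were chosen with earlier results of these data known. Total RNA came from organs of Corti dissected on postnatal day 15 from mice of the mixed background C57BL/6J-129/Sv. Of the 6 Affymetrix arrays, 3 were from Pjvk-/- mice (called knockout; how the allele was inactivated is not stated in the labels) and 3 from Pjvk+/+ animals (wild-type, which some labels write as Pjvk-+/+). No other treatment is given for either group. Nothing in the labels says whether the samples came from separate animals, so the p-values cover only the spread seen among these samples, which could be technical.

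Connexins are membrane proteins that assemble by sixes into half-channels, and half-channels of neighbouring cells dock to form gap junctions through which ions and small metabolites pass. In the cochlea, supporting cells are coupled in an epithelial network and fibrocytes, basal and intermediate cells in a connective tissue network. Both are built mainly of connexins Cx26 (Gjb2) and Cx30 (Gjb6), and both are thought to carry potassium away from hair cells and to spread metabolites and calcium signals. Mutations of the human gene for Cx26 are a leading cause of inherited deafness. The other members are known from fibroblasts, bone and supporting cells (Gja1), myelinating glia (Gjb1 and Gjc3), blood vessels (Gja4, Gja5 and Gjc1) and neurons (Gjd2).

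Most markers of the cells that carry these genes were brighter than dim reference genes, but so were most of all genes. Olfactory and vomeronasal receptor genes, which are not known for a role in the cochlea, served as a mark of dim signal, and 95% of these 1194 genes read below 5.87 on the log2 scale. All 17 supporting cell markers and 11 of 12 hair cell markers were brighter than that in both genotypes, the exception being Atoh1. So were the markers of fibrocytes (7 of 7), myelinating glia (10 of 10), neurons (12 of 12), endothelium (10 of 10) and bone (5 of 5), which include tissues next to the sensory epithelium. Some markers were not, in the stria vascularis (5 of 7 brighter), smooth muscle and pericytes (9 of 10), skeletal muscle (5 of 9) and macrophages (4 of 5). Of the connexins, 8 were brighter than the mark in both genotypes, and Gja5 was not. The mark is lenient: Gja6, another connexin just above it, stood at percentile 29 of level among all genes. Most genes thus passed it, and passing is weak ground for presence of a cell type. The Pjvk probe set, which checks the labels, read 4.42, 4.36 and 4.21 on the knockout arrays and 4.75, 5.06 and 4.96 on the wild-type arrays, lower in every knockout array and below the dim mark in both genotypes (difference -0.59, limma adjusted p = 0.105).

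No connexin passed the test across all genes. At an adjusted p under 0.05 (limma, Benjamini-Hochberg adjustment over all genes), 0 of 9 members were called, beside 7 genes or 0.0351% of all genes. Without adjustment 2 members had p under 0.05 in limma, Gjd2 and Gja1, where 12.4% of all genes did. The same 2 members were the ones whose knockout and wild-type arrays did not overlap, which held for 17.8% of all genes. Both shares are also the background for the counts of the gene lists below. The median difference of the 9 members, knockout minus wild-type on the log2 scale, was -0.04, and that of all genes was -0.01. The all-gene median varied with signal level, from 0.07 in decile 3 to -0.06 in decile 8, where decile 1 is the dimmest. In decile 10, which holds Gjb2, Gjb6 and Gjc3, it was -0.04. The sizes were unequal within the family: Gjd2 was lower, Gja1 was higher, and the difference of each of the other 7 was smaller than 0.21 in size. Exact two-sided permutation p-values of those 7 ran from 0.2 to 1. In a bulk sample, fewer cells of a type and less RNA per cell cannot be told apart.

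**Figure D1:**
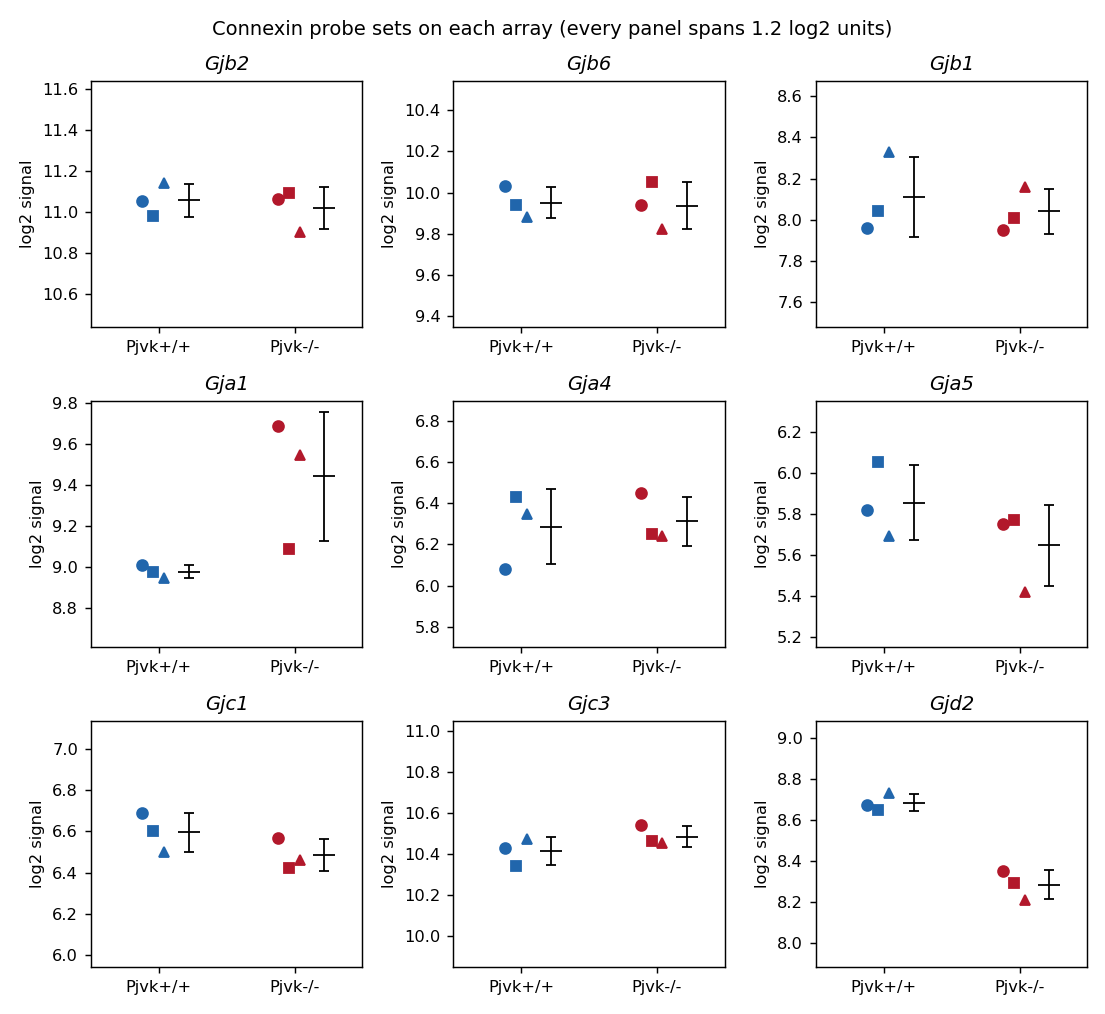
Log2 signal of each connexin probe set on the 3 Pjvk+/+ arrays (blue) and the 3 Pjvk-/- arrays (red), with circles, squares and triangles for replicates 1, 2 and 3 and black marks for the mean and standard deviation. The genotypes are apart for Gjd2, between 8.21 and 8.35 in the knockout against 8.65 and 8.73 in the wild-type, and for Gja1, and they overlap for the other 7 genes; levels cannot be compared between panels, since probe sets differ in their response.

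Gjb2 and Gjb6 form the supporting cell and fibrocyte channels together and are neighbours in gene order on chromosome 14. The 250 bases before their transcription starts are shown because the genes share a locus and a channel while the windows differ in composition. Capitals mark the GC box GGGCGG, a sequence bound by Sp1-type factors, searched on both strands (RefSeq, build GRCm38.p6, both genes on the minus strand, 5′ to 3′).
Gjb2, chr14:57104703-57104952: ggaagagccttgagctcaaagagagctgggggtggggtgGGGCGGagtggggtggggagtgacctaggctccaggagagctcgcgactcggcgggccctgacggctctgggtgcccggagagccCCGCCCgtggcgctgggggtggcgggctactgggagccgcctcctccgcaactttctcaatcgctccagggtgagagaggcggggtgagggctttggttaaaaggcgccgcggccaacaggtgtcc
Gjb6, chr14:57133612-57133861: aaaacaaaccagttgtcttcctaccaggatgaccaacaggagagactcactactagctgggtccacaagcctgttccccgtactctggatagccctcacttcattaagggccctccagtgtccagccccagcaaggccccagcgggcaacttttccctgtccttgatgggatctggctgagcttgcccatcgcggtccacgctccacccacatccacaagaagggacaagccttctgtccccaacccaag
The Gjb2 window was 69.2% G and C, with 18 CpG dinucleotides and 2 GC boxes. The Gjb6 window was 56.8% G and C, with 5 CpG dinucleotides and 0 GC boxes. A GC box was present in 32.7% of 32851 windows of that length, whose median was 52.4% G and C and 6 CpG dinucleotides.

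Gjb2 read 11.06, 11.09 and 10.90 on the knockout arrays and 11.05, 10.98 and 11.14 on the wild-type arrays. The lowest and the highest of the 6 values were knockout replicate 3 and wild-type replicate 3. The difference was -0.04 (standard error 0.07, 95% confidence interval -0.20 to 0.12), and it did not pass the limma test (adjusted p = 0.838). Gjb6 read 9.94, 10.05 and 9.82 on the knockout arrays and 10.03, 9.94 and 9.88 on the wild-type arrays, so here too the groups overlapped. Its difference was -0.01 (standard error 0.07, 95% confidence interval -0.18 to 0.15, limma adjusted p = 0.955). The lower bounds of these intervals depended on the fit. That of Gjb2 was -0.35 with the mean level of Y-linked genes as a covariate and -0.26 without knockout replicate 2, and that of Gjb6 was -0.25 without knockout replicate 2.

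The balance of the pair was compared within each array, where the log2 value of Gjb2 minus that of Gjb6 shows unequal change but not the amounts of the transcripts. It was 1.12, 1.04 and 1.08 in the knockout against 1.02, 1.04 and 1.26 in the wild-type. Wild-type replicate 3 stood above the other 5 arrays. The mean was 1.08 ± 0.04 in the knockout against 1.11 ± 0.13 in the wild-type (SD, n = 3 each), a difference of -0.03 (exact two-sided permutation test, p = 1, where 0.1 is the smallest p possible with 3 against 3). Across the 6 arrays, the centred values of Gjb2 and Gjb6 lay 0.0644 apart on average. Of genes no dimmer than the median gene and with at least the range of the connexin, the 3 closest to Gjb2 were Exosc8, Mak16 and Gabarap, at mean distances of 0.00889, 0.0111 and 0.0117 from its centred profile, out of 3697 candidates. The 3 closest to Gjb6 were Deptor, Erbb2 and Tmem30b, at 0.0167, 0.0233 and 0.0256, out of 4047. With 6 arrays such closeness is a description of these libraries.

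Gja1 and Gjd2, the members with the largest differences, are shown with the 250 bases before their starts. Capitals mark the GC box GGGCGG and the AP-1 site TGANTCA, the element of Fos and Jun factors, both searched on both strands with no overlap between matches (RefSeq, build GRCm38.p6, Gja1 on the plus and Gjd2 on the minus strand, 5′ to 3′).
Gja1, chr10:56377050-56377299: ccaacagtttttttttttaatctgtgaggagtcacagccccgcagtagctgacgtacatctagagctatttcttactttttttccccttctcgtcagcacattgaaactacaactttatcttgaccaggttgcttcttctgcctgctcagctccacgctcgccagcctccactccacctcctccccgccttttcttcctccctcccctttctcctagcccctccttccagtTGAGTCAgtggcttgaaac
Gjd2, chr2:114013620-114013869: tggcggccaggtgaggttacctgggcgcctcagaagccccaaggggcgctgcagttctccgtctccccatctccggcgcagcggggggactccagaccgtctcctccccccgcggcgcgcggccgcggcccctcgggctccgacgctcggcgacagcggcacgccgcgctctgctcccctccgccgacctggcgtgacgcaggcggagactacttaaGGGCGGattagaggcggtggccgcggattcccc
The Gja1 window was 50% G and C and held 6 CpG dinucleotides, 0 GC boxes and 1 AP-1 site, a letter pattern found in 6.75% of all windows. The Gjd2 window was 74% G and C and held 33 CpG dinucleotides, 1 GC box and 0 AP-1 sites. None of the 4 printed windows held the TATA box TATAAA, which 12.4% of all windows did. These matches describe letters and say nothing about binding.

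Gjd2 encodes Cx36, the main connexin of electrical synapses between neurons. It read 8.35, 8.29 and 8.21 on the knockout arrays and 8.67, 8.65 and 8.73 on the wild-type arrays. Every knockout array lay below every wild-type array, with a gap larger than the spread inside either genotype. The means were 8.28 ± 0.07 and 8.68 ± 0.04 (SD, n = 3 each), a difference of -0.40 (standard error 0.06, 95% confidence interval -0.54 to -0.26), or 1.32-fold. Gjd2 ranked 22 among all genes by p and did not pass after adjustment (limma adjusted p = 0.0970). Exact two-sided permutation of the arrays gave p = 0.1, the smallest possible. A difference of this size or larger was met in 101 genes, Gjd2 included, 0.507% of those tested. Genes in the same decile of signal level had a median difference of -0.06, so genes of that brightness in general lay slightly lower. The call depended on the analysis: limma passed Gjd2 among genes above the 25th percentile of level (adjusted p = 0.0483), among genes above the median (0.0167) and with an intensity trend and robust priors (0.00450), and gave 0.270 with the replicate number as a block, 0.159 to 0.391 with 1 array left out and 0.910 with the mean level of Y-linked genes as a covariate. Those Y-linked genes were themselves lower in the knockout, and with them as a covariate Gja1 had the same adjusted p. The 95% confidence intervals of that fit were unlike, -0.65 to -0.14 for Gjd2 and -0.06 to 1.10 for Gja1, which includes 0. Filters on level, probe set choice, the variance model and the replicate block could not change the Gjd2 difference itself. It stayed between -0.43 and -0.36 with other normalization, with the Y-linked covariate and with 1 array left out.

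Neuron markers went both ways, 5 higher and 7 lower. The mean of the 12 neuron genes, as a deviation from the 6-array mean, was 0.08, -0.06 and -0.03 for the knockout and 0.01, -0.02 and 0.03 for the wild-type, and their summed log2 level was 124.5 to 126.1 in the knockout against 125.0 to 125.5 in the wild-type. The groups overlapped, and the median difference was -0.01 (0.024 with cyclic loess), with 0 of 12 genes called by limma at an adjusted p under 0.05 and 0 at an unadjusted p under 0.05. Knockout replicate 1 was highest through 1 gene, Syt1 of synaptic vesicles, which read 8.48, 7.02 and 7.34 on the knockout arrays. Without Syt1 the mean deviation was 0, -0.015 and -0.017 for the knockout and 0.017, -0.011 and 0.026 for the wild-type. The arrays of the genotypes were separate for 4 of the 12 genes, Snap25 and Eno2 lower and Rbfox3 and Prph higher in the knockout, beside 17.8% of all genes. The neuron genes with the smallest p were Snap25, a protein of vesicle fusion, at -0.11 (standard error 0.05), the enolase Eno2 at -0.12 (0.06) and the intermediate filament gene Prph at 0.13 (0.06). The part of neuron content in the Gjd2 difference was not tested. Hair cell markers had a median difference of 0.10 (8 of 12 higher; -0.035 among genes above the median level), with Tmc1 of the mechanotransduction channel at 0.22 and the calcium-binding protein gene Ocm at 0.21, and 0 of 12 were called by limma (2 at an unadjusted p under 0.05). Gjd2 lies on chromosome 2, as Pjvk does, 449 protein-coding genes away in gene order. It is the only one of the 9 members on that chromosome. Whether its position bears on the difference was not tested.

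Gja1 encodes Cx43, the most widespread connexin of the body. It read 9.69, 9.09 and 9.55 on the knockout arrays and 9.01, 8.98 and 8.95 on the wild-type arrays. Knockout replicates 1 and 3 were well above all wild-type arrays, while knockout replicate 2 exceeded the highest of them by less than the difference between the genotypes. The means were 9.44 ± 0.31 and 8.98 ± 0.03 (SD, n = 3 each), with a much wider spread in the knockout. The difference of 0.46 (standard error 0.13, 95% confidence interval 0.16 to 0.77), or 1.38-fold, did not pass the adjusted test (limma adjusted p = 0.275), and the exact two-sided permutation p was 0.1. Counting Gja1, 59 genes (0.296%) differed by as much, and genes in its decile of signal level had a median of -0.05. Without knockout replicate 2 the difference was 0.64 (limma adjusted p = 0.0649), and without knockout replicate 1 it was 0.34 (0.413).

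Bone markers varied over the same arrays, but not always with Gja1. Gja1 is the chief connexin of osteoblasts and osteocytes, and bone of the otic capsule adjoins the dissected tissue. Of 6 bone genes 5 were measured, and all 5 were higher in the knockout mean, with a median difference of 0.19 (0.032 without knockout replicate 1, 0.33 without knockout replicate 2), although limma called 0 of 5 at an adjusted p under 0.05 and 1 at an unadjusted p under 0.05. Their mean deviation was 0.42, -0.15 and 0.05 in knockout replicates 1, 2 and 3 and -0.17, -0.20 and 0.05 in wild-type replicates 1, 2 and 3, against Gja1 deviations of 0.48, -0.12 and 0.34 and of -0.20, -0.23 and -0.26. Knockout replicate 1 was highest and knockout replicate 2 lowest of its genotype on both measures, but bone markers overlapped between genotypes, with wild-type replicate 3 at the level of knockout replicate 3. Among the wild-type arrays, replicate 3 was the highest for bone markers and the lowest for Gja1. The summed log2 level of the list was 44.6 to 47.4 in the knockout against 44.3 to 45.6 in the wild-type. Col1a1, the main collagen of bone, read 11.10, 10.44 and 10.80 on the knockout arrays and 10.25, 10.29 and 10.58 on the wild-type arrays (difference 0.41, standard error 0.16). Sp7, the osteoblast transcription factor osterix, differed by 0.24 (0.12) and the phosphatase gene Alpl by 0.11 (0.11). The part of bone in the Gja1 difference was not tested.

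**Figure D2:**
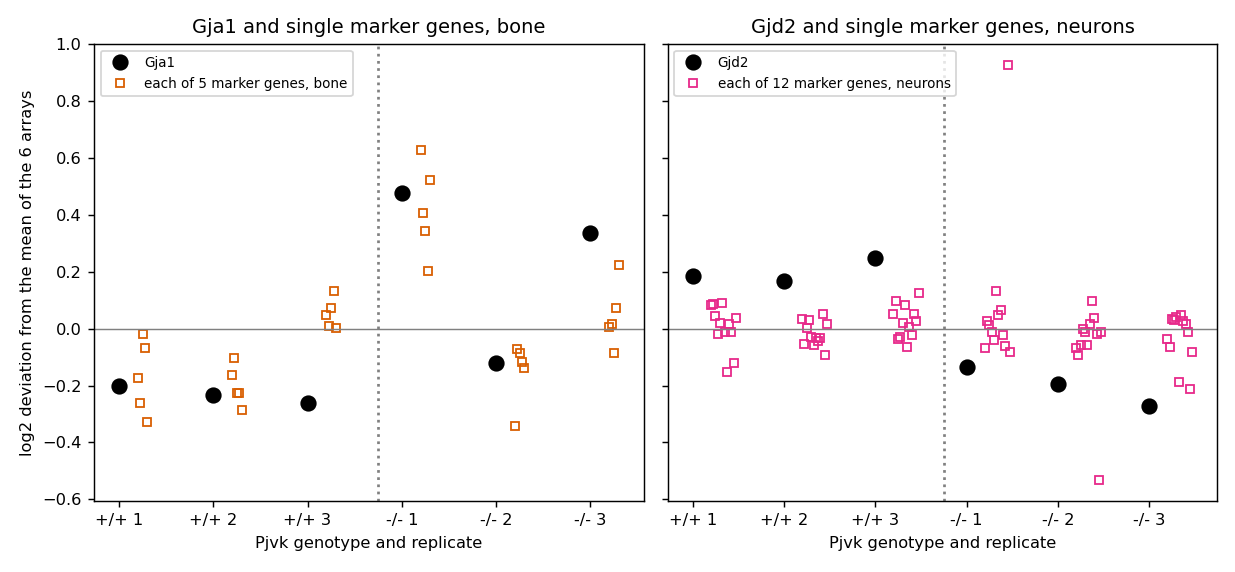
Log2 deviation of Gja1 (left) and Gjd2 (right) from their 6-array means on each array, beside the deviation of each single bone marker (left) and neuron marker (right) from its own mean; the dotted line divides the genotypes and the marker genes are offset sideways for visibility. All 5 bone genes lie above 0 in knockout replicate 1, where Gja1 is at 0.48, and in wild-type replicate 3, where Gja1 is at -0.26. The neuron genes lie on both sides of 0 on every array, with Syt1 at 0.93 in knockout replicate 1 and -0.53 in knockout replicate 2.

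Gjc3 and Gjb1 are connexins of myelinating glia: Cx29 (Gjc3) lies in Schwann cells, and Cx32 (Gjb1) couples the layers of the myelin sheath. Gjc3 read 10.54, 10.46 and 10.45 on the knockout arrays and 10.43, 10.34 and 10.47 on the wild-type arrays. Its groups overlapped only by wild-type replicate 3, and the difference was 0.07 (standard error 0.06, 95% confidence interval -0.07 to 0.21, limma adjusted p = 0.636), or 0.03 without wild-type replicate 2 and 0.04 without knockout replicate 1. Gjb1, which lies on the X chromosome, read 7.95, 8.01 and 8.16 on the knockout arrays and 7.96, 8.04 and 8.33 on the wild-type arrays, where replicate 3 was the highest of all. The difference was -0.07 (standard error 0.10, 95% confidence interval -0.30 to 0.16, limma adjusted p = 0.791). It was 0.04 without wild-type replicate 3 and -0.42 with the Y-linked covariate. Markers of Schwann cells and oligodendrocytes had a median difference of 0.01 (-0.003 with median centring) over 10 measured genes, 6 higher and 4 lower, and limma called 0 (0 at an unadjusted p under 0.05). The 3 with the smallest p were S100b at -0.18 (standard error 0.10), the myelin gene Mobp at 0.24 (0.16) and Egr2, a transcription factor of Schwann cells, at -0.15 (0.10).

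The connexins of vessels had small or imprecise differences. Gja4 (Cx37, of arterial endothelium) read 6.45, 6.25 and 6.24 on the knockout arrays and 6.08, 6.43 and 6.35 on the wild-type arrays. The difference was 0.03 (standard error 0.10, 95% confidence interval -0.20 to 0.25, limma adjusted p = 0.929), and the wild-type spread enclosed nearly the whole knockout range. Gja5 (Cx40, also of arterial endothelium) read 5.75, 5.77 and 5.42 on the knockout arrays and 5.82, 6.05 and 5.69 on the wild-type arrays. Its mean was lower by 0.21 in the knockout (standard error 0.12, 95% confidence interval -0.47 to 0.06, limma adjusted p = 0.487), but its mean signal was no brighter than the receptor genes. Single arrays moved the difference, which was -0.09 without knockout replicate 3 and -0.11 without wild-type replicate 2. Gjc1 (Cx45, of smooth muscle and other tissues) read 6.57, 6.42 and 6.46 on the knockout arrays and 6.69, 6.60 and 6.50 on the wild-type arrays. It differed by -0.11 (standard error 0.07, 95% confidence interval -0.27 to 0.05, limma adjusted p = 0.519), with 1 knockout array above the lowest wild-type array, and by -0.07 without wild-type replicate 1.

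The means of the vessel marker lists were lower on each knockout array than on any wild-type array, but no single marker was called and most overlapped between genotypes. The mean deviation of 10 endothelial genes was -0.01, -0.05 and -0.09 in the knockout against 0.05, 0.04 and 0.06 in the wild-type, and that of 10 smooth muscle and pericyte genes -0.005, -0.081 and -0.105 against 0.075, 0.103 and 0.016. Summed log2 levels were 79.4 to 80.2 against 80.7 to 80.9 for endothelium and 75.6 to 76.6 against 76.8 to 77.7 for smooth muscle and pericytes. The medians were -0.09 (9 of 10 lower) and -0.11 (8 of 10 lower), and limma called 0 of 10 in each list (1 and 3 at an unadjusted p under 0.05, beside 12.4% of all genes). The arrays of the genotypes were separate for 2 endothelial genes and for 4 of the other list, beside 17.8% of all genes. The median of the smooth muscle and pericyte list was -0.029 with the Y-linked covariate. The endothelial genes with the smallest p were Flt1 at -0.22 (standard error 0.07), Emcn at -0.18 (0.09) and Pecam1 at -0.15 (0.07). Those of the smooth muscle and pericyte list were Acta2 at -0.38 (0.07), Myh11 at -0.31 (0.07) and Abcc9 at -0.22 (0.07). Against that direction, the tight junction gene Cldn5 was at 0.05 and the smooth muscle gene Cnn1, no brighter than the receptor genes, at 0.11. The part of vessel content in the values of Gja5 and Gjc1 was not tested.

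Of the remaining connexin family, 7 of 11 genes were analysed here and limma called 0 of them, with a median difference of 0.02, or -0.032 with cyclic loess (1 at an unadjusted p under 0.05). Gja10, the one with separate groups, read 4.92, 4.99 and 4.92 on the knockout arrays and 4.83, 4.63 and 4.84 on the wild-type arrays (difference 0.18, standard error 0.07, limma adjusted p = 0.368), but it was no brighter than the receptor genes, as were Gjd4 and Gje1. Gja3, the neighbour of Gjb2 in gene order and known from the lens, differed by 0.18 (standard error 0.09) with overlapping groups. Gjd3, Gjb5 and Gja6 differed by 0.13, -0.04 and -0.02. The pannexins form related channels that do not dock between cells, and Panx1, Panx2 and Panx3 differed by -0.07, -0.03 and 0.02, with 0 of 3 called by limma (0 at an unadjusted p under 0.05).

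**Figure D3:**
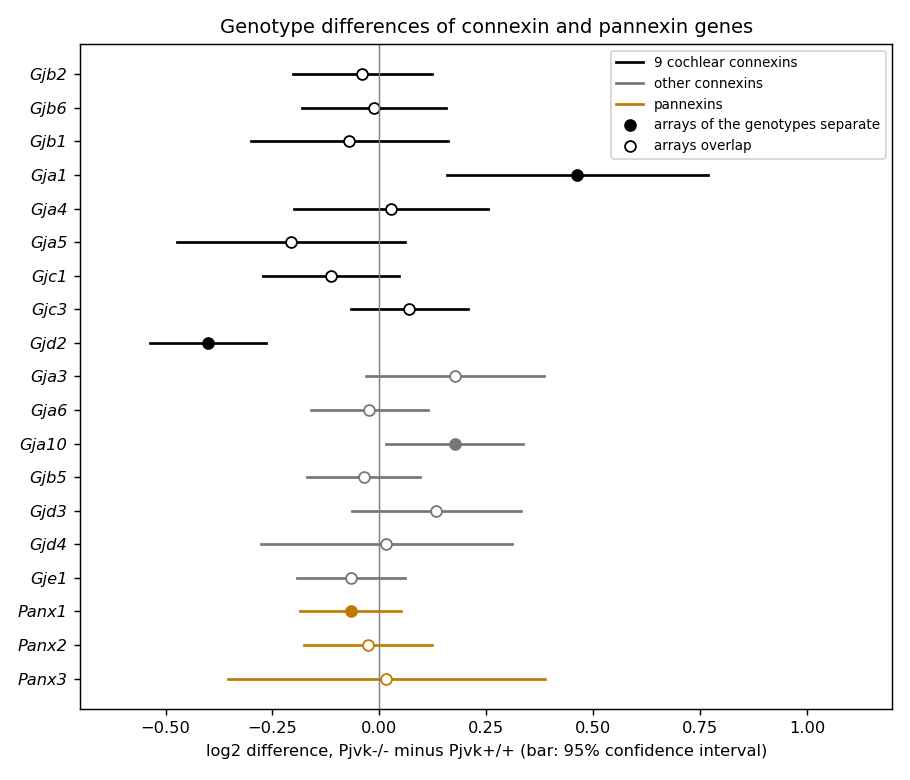
Log2 difference, Pjvk-/- minus Pjvk+/+, with its 95% confidence interval from limma, for the 9 cochlear connexins (black), 7 other connexins (grey) and 3 pannexins (orange); filled symbols mark genes whose 3 knockout and 3 wild-type arrays do not overlap. Gja1 at 0.46 and Gjd2 at -0.40 lie farthest from 0, and the intervals of Gjb2, Gjb6 and the other 5 members include 0.

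Partners of gap junctions were close to level. All 6 of 7 partner genes that were analysed differed by between -0.06 and -0.003, with a median of -0.02 (0.017 with cyclic loess) and 0 called by limma (0 at an unadjusted p under 0.05). They include Tjp1, the scaffold ZO-1 that binds connexin tails, at -0.003 (standard error 0.05), Cnst, which encodes the connexin-sorting protein consortin, at -0.06 (0.07), Cav1 of caveolae at -0.03 (0.07) and the actin-binding protein gene Dbn1 at -0.06 (0.05).

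Genes of the potassium route, which the connexin networks are thought to serve, were represented by 9 of 14, with a median of 0.04 (-0.011 with cyclic loess) and 0 called by limma (2 at an unadjusted p under 0.05). These 2 encode the potassium channel of the strial marginal cells that secretes into the endolymph. Kcne1, its accessory subunit, read 5.24, 5.23 and 5.40 on the knockout arrays and 5.48, 5.51 and 5.81 on the wild-type arrays (difference -0.31, standard error 0.10, limma adjusted p = 0.295), and it was no brighter than the receptor genes. Kcnq1, the pore subunit, read 6.77, 6.69 and 6.65 against 6.85, 6.85 and 7.15 (difference -0.25, standard error 0.09, limma adjusted p = 0.342). The strial list, which holds both genes and Kcnj10, had 5 of 7 members lower and a median of -0.31, and limma called 1 of them, the melanocyte gene Dct (5 at an unadjusted p under 0.05, beside 12.4% of all genes), while the receptor kinase gene Met was at -0.32 (standard error 0.06). Dct read 6.69, 6.90 and 6.32 on the knockout arrays and 8.34, 8.33 and 8.83 on the wild-type arrays (difference -1.86, standard error 0.17, limma adjusted p = 0.0115). The mean deviation of the strial list was -0.18, -0.21 and -0.24 on the knockout arrays and 0.125, 0.15 and 0.35 on the wild-type arrays, and the difference of the list mean was -0.42 with Dct and -0.18 without it. The median of the list was -0.18 without wild-type replicate 3, -0.22 without knockout replicate 3, -0.43 with the Y-linked covariate and -0.13 over its members above the median level. Its summed log2 level was 49.5 to 49.9 against 52.0 to 53.6, and Tyr and Kcne1 were no brighter than the receptor genes. The part of strial content in the connexin values was not tested. The inward rectifier Kcnj16 differed by 0.08 (standard error 0.07), and Kcnj10 by 0.06 (0.06). Slc12a2, the sodium-potassium-chloride cotransporter of marginal cells and fibrocytes, was at -0.06 (0.05), and Slc12a7, a potassium-chloride cotransporter of Deiters cells, at 0.05 (0.06).

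Neither list for the cells that hold Gjb2 and Gjb6 had a called gene. Supporting cell markers lay on both sides of 0 (9 of 17 higher) with overlapping array means and a median of 0.05 (0 without knockout replicate 1, -0.028 with the mean level of Y-linked genes as a covariate), limma called 0 (5 at an unadjusted p under 0.05, beside 12.4% of all genes), and the mean deviation stayed between -0.03 and 0.03 on every array. Tectb, which encodes a tectorial membrane protein made by supporting cells, was at 0.45 (standard error 0.07, limma adjusted p = 0.0923). Prox1 was at -0.21 (0.06) and the Notch ligand gene Jag1 at -0.18 (0.05). Arrays did not overlap between genotypes for 5 of the 17 genes, Tectb, Prox1 and Jag1 among them, beside 17.8% of all genes. All 7 fibrocyte markers were lower in the mean, with a median of -0.11 (0.084 with that covariate) and 0 called by limma (0 at an unadjusted p under 0.05), Coch of the spiral ligament at -0.11, Pou3f4 at -0.12 and Otor at -0.19. Knockout replicate 3, the lowest array for Gjb2 and Gjb6, was also the lowest for the fibrocyte list, at -0.24, where the other 5 arrays lay between -0.01 and 0.08, and without it the median of the list was -0.0083. The summed log2 level of the list was 69.3 to 71.3 in the knockout against 70.9 to 71.5 in the wild-type, and its part in the values of Gjb2 and Gjb6 was not tested. Skeletal muscle genes separated the genotypes in their mean, at 0.05, 0.20 and 0.03 on the knockout arrays and -0.12, -0.02 and -0.14 on the wild-type arrays, with summed log2 levels of 55.6 to 57.2 against 54.2 to 55.2. Their median difference was 0.19 (9 of 9 higher), with Myh4 at 0.35, Myh2 at 0.26 and Actn3 at 0.19, 4 of the 9 were no brighter than the receptor genes, and limma called 0 (5 at an unadjusted p under 0.05, beside 12.4% of all genes). They lie in deciles 2 to 5 of signal level, whose medians over all genes ran from 0.01 to 0.07. The part of muscle tissue in the connexin values was not tested. Macrophage genes had a median of 0.02, with 0 of 5 called by limma (0 at an unadjusted p under 0.05).

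**Figure D4:**
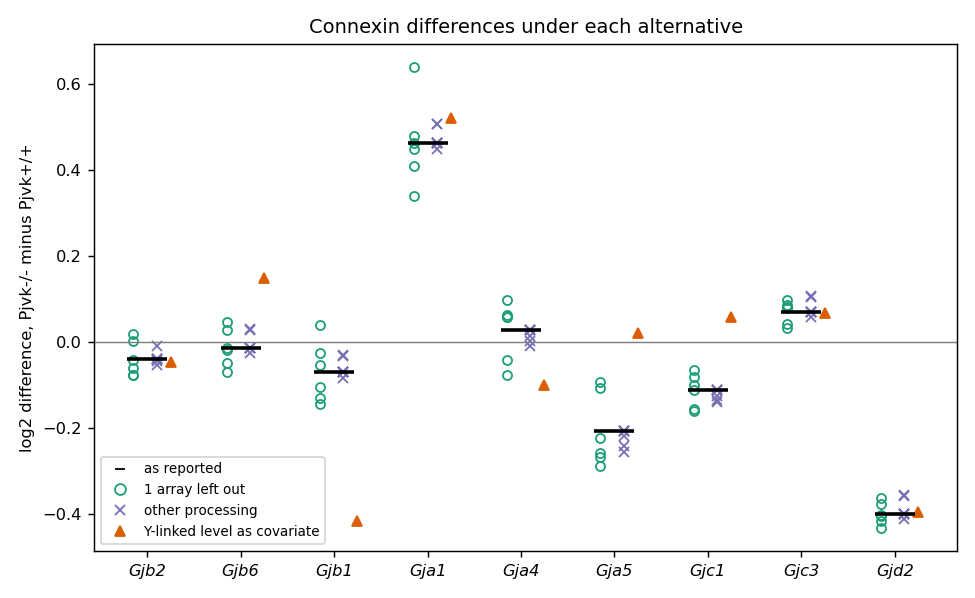
Log2 difference, Pjvk-/- minus Pjvk+/+, of each connexin as reported (black bar), with 1 array left out (green circles), with other processing (purple crosses) and with the mean level of Y-linked genes as a covariate (orange triangles). Gja1 stays above 0 and Gjd2 below 0 in every alternative drawn, and Gjb2, Gjb6, Gjb1, Gja4, Gja5 and Gjc1 cross 0 in at least 1. Filters on level, probe set choice, the variance model and the replicate block cannot move a difference, so their crosses repeat the reported value.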

How the data were processed

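The deposited table gave log2 values of 35557 probe sets on 6 arrays. Per the submitters' processing notes they came from the Affymetrix Expression Console. Its version, its settings and a genome build are not given in the labels or files used here, and the table was used without further normalization. Probe sets with 1 gene symbol in the platform annotation (21789) were kept, symbols were updated by gene identifier (21698 matched), and the probe set with the highest mean stood for each gene. Knockout and wild-type were compared over all 19938 genes with limma 3.58.1 in R 4.3.3 (lmFit, eBayes, Benjamini-Hochberg adjustment), with a call at an adjusted p under 0.05. This step was tested on simulated data. The alternatives covered filters on level, normalization, probe set choice, the variance model, a replicate block, a covariate of Y-linked genes and arrays left out. The number of arrays limits the precision. Cross-hybridization between connexins was not assessed. The 9 members, the gene lists and the tests were chosen with earlier results of these data known. Named were the members, Pjvk, the connexins and pannexins measured, up to 3 genes per other list by smallest unadjusted p, and the 3 genes most like Gjb2 and Gjb6. Other genes that a count or comparison pointed to (Kcnj10, Slc12a7, Atoh1, Cnn1, Cldn5, Rbfox3, Syt1 and Dct among them) were chosen after their values were seen, as were the list means without Dct and without Syt1.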

Additional observations from a re-analysis of the deposited data

How the results depend on the processing

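No connexin was called in 13 of 16 alternatives, and 1, Gjd2, was called above the 25th percentile of level, above the median, and with an intensity trend and robust priors. Over all genes those 3 settings called 20, 45 and 112, median centring 18, the replicate block 1, the Y-linked covariate 0, and leaving out 1 array 2 to 6. Of the other lists 1 gene was called as reported, 2, 4 and 4 under the 3 settings named first, 0 with the block or the covariate and 0 to 1 with 1 array left out. Same-numbered arrays did not deviate together over all genes (correlations 0.08, 0.02 and -0.01), and the arrays were treated as unpaired. Such correlations cannot exclude a pairing that touches few genes. With the replicate block Gja1 was at 0.46 (limma adjusted p = 0.327), and no member was called, while 3 had an unadjusted p under 0.05 in limma. Signs turned for small differences. With cyclic loess Gja4 was at -0.011 and Gjb6 at 0.027, and with quantile normalization Gjb6 was at 0.031. With the Y-linked covariate, whose genes were lower in the knockout (Kdm5d at -0.40), Gja4 was at -0.10, Gja5 at 0.020, Gjb6 at 0.15, Gjc1 at 0.057 and Gjb1 at -0.42 (limma adjusted p = 0.910). With 1 array left out Gjb2 ran from -0.078 to 0.018, Gjb6 from -0.07 to 0.045, Gjb1 from -0.145 to 0.04 and Gja4 from -0.077 to 0.098. The balance of Gjb2 and Gjb6 ran from -0.07 to 0.05 over its alternatives. The causes were not tested. Both filters on level test fewer genes.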
